A study of Homo sapiens with 8 samples.

Results

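Interferon-stimulated genes, the genes that cells switch on after interferon, were followed in CD10-A375 and mock-A375 melanoma cells on Illumina bead arrays. The 42 members were chosen by name, as genes known to be induced by interferon. The rule used no value of these arrays, but the list was drawn up with earlier results of these data known. Of the 42, 41 had a probe among the 20046 genes that could be named, and 34 of them had a probe detected well enough to be tested, among 11303 genes tested in all. A375 is an established human melanoma line. CD10-A375 cells had been stably transfected with a plasmid holding the open reading frame of CD10, a membrane peptidase encoded by MME, selected with G418 and sorted for high surface CD10. Mock-A375 cells, which received the empty vector and G418 selection, served as the control, and no sort is described for them. Sorting and CD10 therefore cannot be told apart here. Each group has 4 arrays. The array labels call these biological replicates, but the sources used here mention only 1 transfected population for each of the groups. The p-values therefore cover differences among cultures of that population, and repeated transfections were not compared. No interferon treatment is named for either group.

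Type I and type III interferons bind receptors at the cell surface and, through the kinases JAK1 and TYK2, activate a complex that contains STAT2 and IRF9 and binds the interferon-stimulated response element (ISRE) in the promoters of many of these genes. Interferon gamma acts mainly through another site, the gamma-activated site (GAS). The products of the induced genes sense viral RNA, degrade or sequester it, block the entry or release of virus particles, or feed back on the signalling itself, and many tumor cells carry a low level of their expression without added interferon.

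All signals below are normalized signals in log2 units, with 16 added to each before the logarithm, which understates the changes of dim probes. The log2 fold change is CD10-A375 over mock-A375 and is given ± its standard error (SE). A gene passed the test where limma's adjusted p, over all 19550 probes tested, was under 0.05, and a gene with several probes was represented by its brightest tested probe. A probe counts as detected on an array at a detection p of 0.01 or less. Between 15977 and 16937 probes were detected per CD10-A375 array and between 15930 and 16709 per mock-A375 array, and the number of arrays limits the precision. Correlations between arrays ran from 0.991 to 0.993 within groups and from 0.962 to 0.967 between groups. The 4 probes for MME were not detected on any of the 8 arrays, and so gave no check of the group labels. The study also examined CD10 protein by flow cytometry and Western blot and chosen transcripts by qRT-PCR, which were not analysed here. The melanocyte lineage markers MITF, SOX10 and MIA were detected on all 8 arrays. The other 6 of the 9 with a probe, among them MLANA, PMEL and TYR, were detected on none. Of the leukocyte markers, PTPRC, the pan-leukocyte marker, was detected on no array, whereas CD14, CD68 and LYZ were detected on all 8.

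The interferon-stimulated genes shifted in both directions in CD10-A375 cells, with ISG20 and IFI35 the largest rises at 2.28-fold and 2.17-fold and OAS2 and IFI44 the largest falls, at 3.69-fold and at least 3.85-fold. Of the 34 tested members, 14 passed, with 4 higher in CD10-A375 (ISG20, IFI35, IRF7 and IFIT1) and 10 lower (IFI44, OAS2, HERC5, IFITM1, BST2, IFIT5, HERC6, IFIT2, MX1 and PARP14). This was 41.2% of the tested members, against 41.8% of all genes tested. Over single probes, 36.6% of those tested passed, 17.3% as higher and 19.3% as lower. The members higher in CD10-A375 made up 11.8%, against 19.9% of all genes, and those lower made up 29.4%, against 21.9% of all genes. The arrays of the groups did not overlap for 16 members, 5 higher and 11 lower in CD10-A375, and for 40.0% of all genes. The median log2 fold change was -0.14 over the members and -0.03 over all genes. Among genes detected on all 8 arrays, 13 of 29 members passed, against 43.6% of all such genes, with a median of -0.12 over the members and -0.03 over all. With the test the study's methods name, significance analysis of microarrays (SAM), 3 members were higher (ISG20, IFI35 and IRF7) and 6 lower (IFI44, OAS2, HERC5, IFITM1, BST2 and IFIT5), beside 8.74% of all genes higher and 7.82% lower. SAM was run here on the same normalized values, with p from relabelled arrays pooled over probes. The true labelling is among the relabellings, which limits how low the adjusted p of SAM can go. The thresholds of the study's methods, a fold beyond 2 in either direction with p under 0.01 before adjustment, were applied to limma's values and not to SAM. By this rule, 7 members passed, against 5.84% of all genes. These were ISG20 and IFI35 among the higher members and HERC5, OAS2, IFITM1, BST2 and IFI44 among the lower ones. In these bulk samples, fewer cells expressing a gene and less RNA per cell cannot be told apart.

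**Figure D1:**
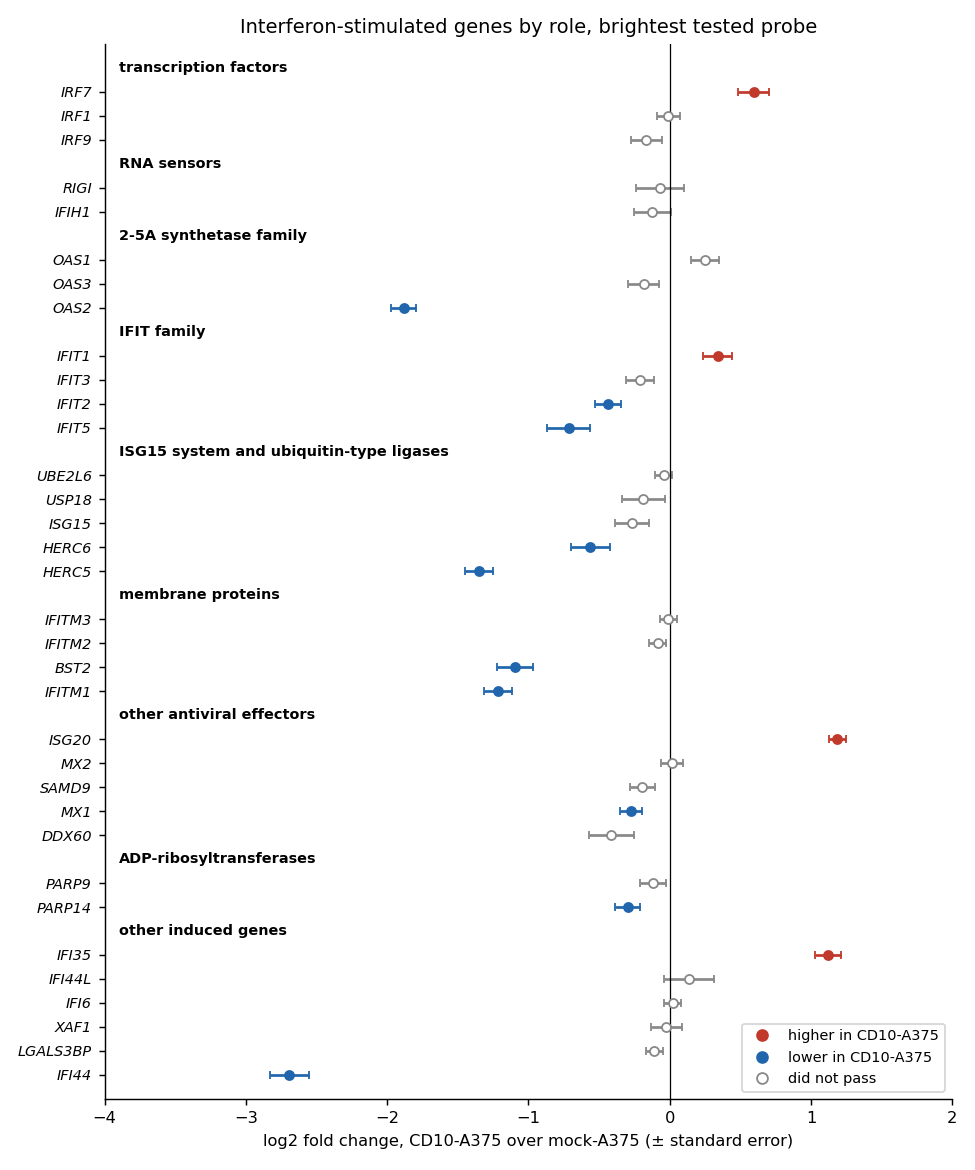
Log2 fold change of each of the 34 tested interferon-stimulated genes, CD10-A375 over mock-A375, with bars of 1 standard error, grouped by role. Filled symbols mark the 4 members higher and the 10 members lower in CD10-A375 by limma's adjusted p, and open symbols the 20 that did not pass. IFI44, the leftmost point, is drawn at its measured difference, for which only a bound holds.

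**Figure D2:**
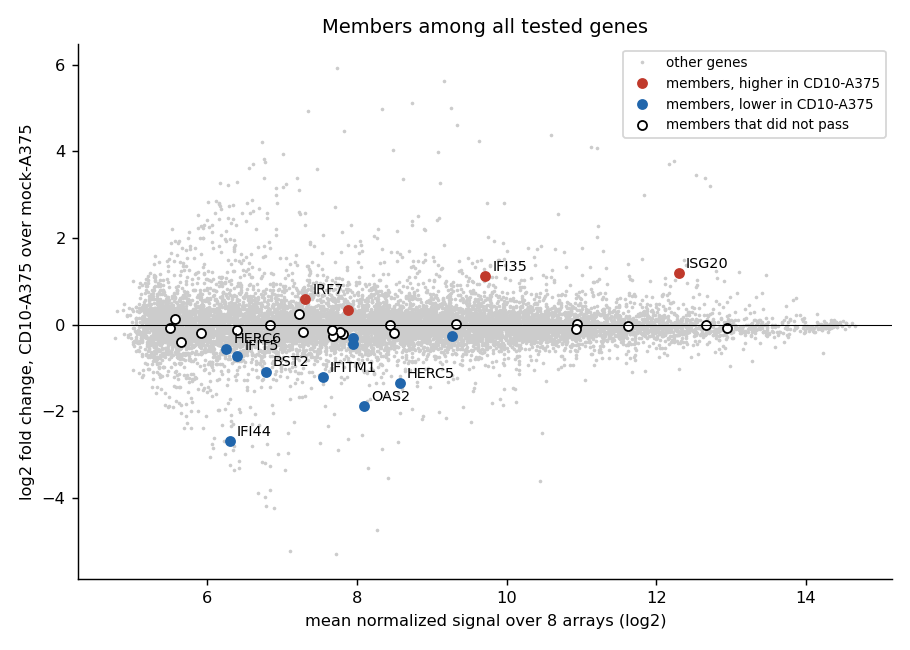
Log2 fold change, CD10-A375 over mock-A375, plotted against the mean normalized signal (log2) over 8 arrays for 11303 genes. Of the 34 tested members, 8 lie above 0 and 26 below, with a median of -0.14 beside -0.03 for all genes.

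Promoters of some members that rose and some that fell are shown because the ISRE and GAS are the sequences through which interferon acts on these genes. They are from the RefSeq promoter table of GRCh38.p14, each from 250 bases before to 50 bases after the annotated start, and 34 of the 42 members matched an entry. The members without one were IFIT2, IFITM2, IRF7, MX2, OAS2, OASL, TRIM22 and USP18. Shown are the 3 members with the largest rise and the 3 with the largest fall among those detected on all 8 arrays with a promoter in the table, and IFI44, which was added after its values were seen. The windows are chr15:88638766-88639065 (plus strand) for ISG20, chr17:43006534-43006833 (plus strand) for IFI35, chr10:89392373-89392672 (plus strand) for IFIT1, chr4:88456869-88457168 (plus strand) for HERC5, chr11:313790-314089 (plus strand) for IFITM1, chr19:17405581-17405880 (minus strand) for BST2 and chr1:78649539-78649838 (plus strand) for IFI44. Each sequence is written from 5′ to 3′ on the strand of the gene, and capitals mark the matches to the ISRE, searched as GAAA, any 2 bases and GAAA on either strand (TTTC, any 2 bases and TTTC on the strand shown), and to the GAS, searched as TTCNNNGAA, which reads the same on both strands.
ISG20: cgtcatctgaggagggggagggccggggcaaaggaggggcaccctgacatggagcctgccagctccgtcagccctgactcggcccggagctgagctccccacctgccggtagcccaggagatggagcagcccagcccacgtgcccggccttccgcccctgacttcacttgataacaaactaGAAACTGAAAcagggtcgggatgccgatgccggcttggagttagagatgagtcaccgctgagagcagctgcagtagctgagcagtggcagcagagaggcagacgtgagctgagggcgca
IFI35: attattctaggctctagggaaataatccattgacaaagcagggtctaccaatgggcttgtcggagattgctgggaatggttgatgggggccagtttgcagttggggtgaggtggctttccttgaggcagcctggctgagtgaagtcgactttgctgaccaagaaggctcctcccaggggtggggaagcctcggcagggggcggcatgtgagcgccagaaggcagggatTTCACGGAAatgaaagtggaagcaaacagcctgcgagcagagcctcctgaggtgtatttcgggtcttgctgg
IFIT1: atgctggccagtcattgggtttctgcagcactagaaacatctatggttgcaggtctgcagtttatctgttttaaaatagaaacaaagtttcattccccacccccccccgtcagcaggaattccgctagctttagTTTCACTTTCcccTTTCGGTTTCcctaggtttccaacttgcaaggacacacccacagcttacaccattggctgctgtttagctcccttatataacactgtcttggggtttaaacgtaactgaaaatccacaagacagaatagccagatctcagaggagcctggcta
HERC5: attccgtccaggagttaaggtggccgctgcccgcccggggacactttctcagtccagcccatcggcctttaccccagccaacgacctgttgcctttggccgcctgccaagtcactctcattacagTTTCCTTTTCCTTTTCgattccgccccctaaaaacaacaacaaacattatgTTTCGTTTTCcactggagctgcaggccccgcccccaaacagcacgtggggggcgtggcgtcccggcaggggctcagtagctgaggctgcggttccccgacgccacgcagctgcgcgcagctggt
IFITM1: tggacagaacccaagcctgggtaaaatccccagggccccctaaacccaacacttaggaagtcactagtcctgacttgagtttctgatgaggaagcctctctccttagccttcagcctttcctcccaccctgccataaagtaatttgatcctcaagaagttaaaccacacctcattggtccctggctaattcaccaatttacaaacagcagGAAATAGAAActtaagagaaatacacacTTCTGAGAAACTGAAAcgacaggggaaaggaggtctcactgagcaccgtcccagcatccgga
BST2: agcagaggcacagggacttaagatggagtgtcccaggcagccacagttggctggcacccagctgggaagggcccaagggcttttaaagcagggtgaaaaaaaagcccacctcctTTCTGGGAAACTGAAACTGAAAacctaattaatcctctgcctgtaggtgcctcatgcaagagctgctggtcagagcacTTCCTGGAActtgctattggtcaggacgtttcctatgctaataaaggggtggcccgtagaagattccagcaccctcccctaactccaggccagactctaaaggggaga
IFI44: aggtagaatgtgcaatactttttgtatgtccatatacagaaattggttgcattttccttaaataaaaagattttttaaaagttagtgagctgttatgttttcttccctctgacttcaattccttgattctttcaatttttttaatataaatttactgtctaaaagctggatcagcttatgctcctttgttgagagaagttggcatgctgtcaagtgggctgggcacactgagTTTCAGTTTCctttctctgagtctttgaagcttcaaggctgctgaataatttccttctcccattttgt

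The ISG20 window held 1 ISRE match, which began 69 bases before the start, and the IFI44 window held 1, beginning 18 bases before it. IFIT1 had 2 separate ISRE matches, 116 and 103 bases before the start. HERC5 had 3, at 125, 119 and 74 bases, of which the first pair overlapped. In the IFITM1 window, ISRE matches began 40 and 6 bases before the start, and a GAS match at 12 bases overlapped the second of them. BST2 had 2 overlapping ISRE matches at 130 and 124 bases, a GAS match at 136 bases that overlapped the first of these, and a further GAS match at 58 bases. IFI35 had no ISRE match in this window and 1 GAS match at 22 bases. The ISRE letters occurred in windows of 23 of the 34 members, or 67.6%, against 4.38% of all 27305 genes in the table, and the GAS letters in 11 members, or 32.4%, against 9.38% of all genes. Both directions of change held the ISRE letters. They occurred in 2 of the 3 higher members with a window, in 7 of the 8 lower members, in 11 of the 17 that did not pass and in 3 of the 6 that were not tested. A match is a description of the letters and not of a bound site.

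Among the transcription factors of the response, IRF7 rose in CD10-A375 cells. IRF7 is itself induced by interferon and drives the transcription of type I interferon genes. Its signal was 7.40, 7.80, 7.54 and 7.69 on the CD10-A375 arrays, against 7.03, 6.91, 7.21 and 6.91 on the mock-A375 arrays. All CD10-A375 arrays lay above all mock-A375 arrays. The means were 7.61 ± 0.18 in CD10-A375 and 7.01 ± 0.14 in mock-A375 (SD, n = 4 each), a log2 fold change of 0.59 ± 0.11 or 1.51-fold (limma, adjusted p = 0.000376), and 1 of its 3 probes was tested. IRF9, the DNA-binding partner of STAT2, had a log2 fold change of -0.17 (limma, adjusted p = 0.244). IRF1, which acts downstream of interferon gamma, had one of -0.01 (limma, adjusted p = 0.946). STAT2 was not analysed here, as no probe carried its name. The cytosolic RNA sensors RIGI and IFIH1, which recognise viral RNA, had log2 fold changes of -0.07 and -0.12 and did not pass (limma, adjusted p = 0.799 and 0.48), with RIGI detected on 0 CD10-A375 arrays and on 1 mock-A375 array.

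In the oligoadenylate synthetase family, whose products make a messenger that sets off the decay of viral RNA, OAS2 fell, whereas OAS1 and OAS3 did not pass at their brightest probes. OAS2 had signals of 7.09, 7.20, 7.27 and 7.01 in CD10-A375, against 9.06, 8.95, 9.11 and 8.98 in mock-A375. Every CD10-A375 array was far below every mock-A375 array. The means were 7.14 ± 0.12 in CD10-A375 and 9.03 ± 0.07 in mock-A375 (SD, n = 4 each), a log2 fold change of -1.88 ± 0.09 or 3.69-fold lower (limma, adjusted p = 6.47e-12). As deposited, before normalization, the OAS2 signal averaged 125 in CD10-A375 and 515 in mock-A375. A second OAS2 probe, detected on 0 CD10-A375 arrays and 1 mock-A375 array, was also lower, by -0.63 on the log2 scale (limma, adjusted p = 0.0125), and the other 2 were not tested. OAS1 gave 7.32, 7.39, 7.23 and 7.47 in CD10-A375, against 7.11, 7.02, 7.19 and 7.11 in mock-A375. Its arrays did not overlap, yet the log2 fold change of 0.25 ± 0.10 missed the threshold (limma, adjusted p = 0.059, and 0.0286 to 0.278 over the alternatives). Without CD10-A375 replicate 3 it passed at 0.29 (limma, adjusted p = 0.0426). Of its other tested probes, 1 passed at 0.43 (limma, adjusted p = 0.0479) with overlapping arrays and 1 did not, at 0.22 (limma, adjusted p = 0.178). OAS3 had a log2 fold change of -0.18 (limma, adjusted p = 0.194), and OASL was not detected.

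**Figure D3:**
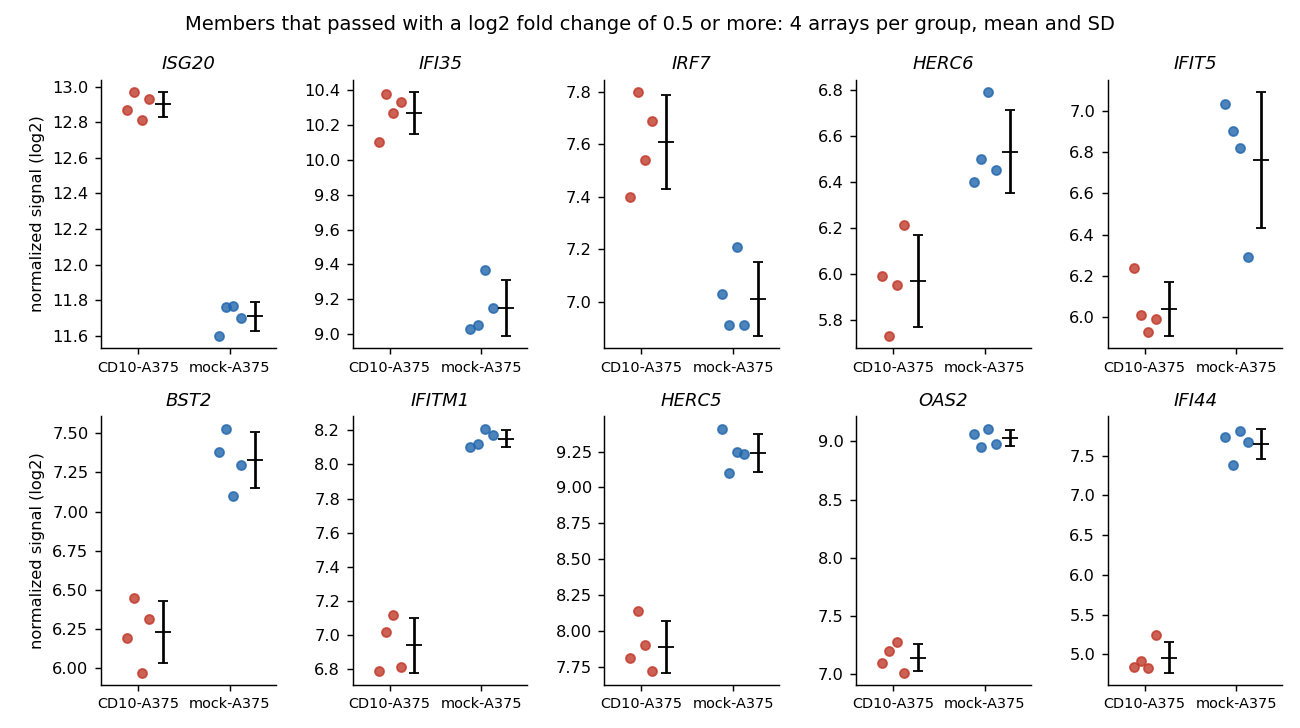
Normalized signal (log2) on each of the 4 CD10-A375 arrays and the 4 mock-A375 arrays for the 10 members that passed with a log2 fold change of at least 0.5 in size, with the mean and SD beside the points. In all 10 panels the points of the groups do not overlap, and ISG20, IFI35 and IRF7 are the panels with CD10-A375 above mock-A375.

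The IFIT genes encode tetratricopeptide repeat proteins, several of which bind viral RNA, and they moved in opposite directions. IFIT5 signals were 6.24, 6.01, 5.93 and 5.99 in CD10-A375, against 7.03, 6.90, 6.82 and 6.29 in mock-A375. The groups did not overlap, although mock-A375 replicate 4 lay close to the CD10-A375 arrays. IFIT5 averaged 6.04 ± 0.13 in CD10-A375 and 6.76 ± 0.33 in mock-A375 (SD, n = 4 each), a log2 fold change of -0.72 ± 0.15 or 1.64-fold lower (limma, adjusted p = 0.00126). IFIT2 was lower as well, with 7.64, 7.76, 7.79 and 7.70 in CD10-A375 against 8.34, 8.06, 8.21 and 8.01 in mock-A375 and a log2 fold change of -0.44 ± 0.09 (limma, adjusted p = 0.00125). IFIT1, which binds capped RNA without the methyl marks of the host, was higher, with 8.00, 8.15, 8.05 and 7.99 in CD10-A375 against 7.57, 7.76, 7.92 and 7.59 in mock-A375. Its log2 fold change was 0.34 ± 0.10 (limma, adjusted p = 0.0103), and the call was lost without normalization between arrays, at 0.29 (limma, adjusted p = 0.0647). With SAM, the adjusted p was 0.0986 for IFIT2 and 0.183 for IFIT1, and neither passed. Over all alternatives, the adjusted p ran from 0.000532 to 0.0986 for IFIT2, while that of IFIT1 covered 0.00291 to 0.183. IFIT3, a partner of IFIT1, did not pass at its brightest probe with -0.21 (limma, adjusted p = 0.125), whereas its next probe passed with -0.46 (limma, adjusted p = 0.00116) and its dimmest, detected on 0 CD10-A375 and 2 mock-A375 arrays, did not, with -0.40 (limma, adjusted p = 0.0868).

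Of the ISG15 system, which attaches the ubiquitin-like protein ISG15 to other proteins, the ligase gene HERC5 and its relative HERC6 fell. HERC5 is the main human ISG15 ligase, and its promoter is printed above. HERC5 signals were 7.81, 8.14, 7.90 and 7.72 in CD10-A375, against 9.41, 9.10, 9.25 and 9.23 in mock-A375. The groups lay well apart. The means were 7.89 ± 0.18 in CD10-A375 and 9.24 ± 0.13 in mock-A375 (SD, n = 4 each), a log2 fold change of -1.35 ± 0.10 or 2.55-fold lower (limma, adjusted p = 3.31e-09), and the deposited signal averaged 222 in CD10-A375 and 603 in mock-A375. HERC6 had 5.99, 5.73, 5.95 and 6.21 in CD10-A375, against 6.40, 6.50, 6.79 and 6.45 in mock-A375. All CD10-A375 arrays were below all mock-A375 arrays by a smaller margin, with a log2 fold change of -0.56 ± 0.14 or 1.48-fold lower (limma, adjusted p = 0.00472), and HERC6 did not pass with SAM (adjusted p = 0.0606, the highest over the alternatives, with 0.00195 the lowest). ISG15 itself had 7.39, 7.68, 7.26 and 7.87 in CD10-A375 against 7.72, 7.81, 8.01 and 7.72 in mock-A375, with overlapping groups and a log2 fold change of -0.27 ± 0.12 (limma, adjusted p = 0.101, and 0.0238 to 0.313 over the alternatives). It passed without CD10-A375 replicate 4, at -0.37 (limma, adjusted p = 0.0238). UBE2L6, the conjugating enzyme of the system, did not pass with either tested probe, at -0.04 and 0.20 (limma, adjusted p = 0.65 and 0.0781). Its other probe was not detected on any array. USP18, the protease that removes ISG15, did not pass either, at -0.19 (limma, adjusted p = 0.353, detected on 3 CD10-A375 and 4 mock-A375 arrays). TRIM22 was not detected.

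The membrane proteins that act on virus entry and release were split between lower and little changed. IFITM1, which hinders the fusion of virus with cell membranes, gave 6.79, 7.02, 7.12 and 6.81 in CD10-A375, against 8.10, 8.12, 8.21 and 8.17 in mock-A375. The mock-A375 arrays lay close together and all above the CD10-A375 arrays. IFITM1 averaged 6.94 ± 0.16 in CD10-A375 and 8.15 ± 0.05 in mock-A375 (SD, n = 4 each), a log2 fold change of -1.21 ± 0.10 or 2.32-fold lower (limma, adjusted p = 1.77e-08). Its relatives IFITM2 and IFITM3 had log2 fold changes of -0.09 and -0.01 and did not pass (limma, adjusted p = 0.262 and 0.91). The 3 genes are similar in sequence, and whether their probes share signal was not tested. BST2, also called tetherin, holds budding virus particles at the cell surface. Its signals were 6.19, 6.45, 5.97 and 6.31 in CD10-A375, against 7.38, 7.53, 7.10 and 7.30 in mock-A375. The groups did not overlap, and the means of 6.23 ± 0.20 in CD10-A375 and 7.33 ± 0.18 in mock-A375 (SD, n = 4 each) gave a log2 fold change of -1.09 ± 0.13 or 2.13-fold lower (limma, adjusted p = 2.32e-06).

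ISG20 rose more than any other member. It encodes an exonuclease that degrades RNA. ISG20 signals were 12.87, 12.97, 12.81 and 12.93 in CD10-A375, against 11.60, 11.76, 11.77 and 11.70 in mock-A375. The arrays within each group lay close together and the groups far apart. The means were 12.90 ± 0.07 in CD10-A375 and 11.71 ± 0.08 in mock-A375 (SD, n = 4 each), a log2 fold change of 1.19 ± 0.06 or 2.28-fold (limma, adjusted p = 2.11e-11), and the deposited signal averaged 7540 in CD10-A375 and 3370 in mock-A375. MX1, a dynamin-like GTPase that blocks virus replication, had 8.96, 9.21, 9.19 and 9.19 in CD10-A375, against 9.46, 9.38, 9.42 and 9.38 in mock-A375. The groups did not overlap, with CD10-A375 replicate 1 the lowest, and the log2 fold change was -0.27 ± 0.08 (limma, adjusted p = 0.00793), which did not pass with SAM (adjusted p = 0.242, the highest over the alternatives, with 0.00403 the lowest). MX2, its paralog, had a log2 fold change of 0.02 (limma, adjusted p = 0.884). DDX60, a helicase linked to RNA sensing, was detected on 1 CD10-A375 array and 4 mock-A375 arrays, with 5.31, 5.28, 5.76 and 5.44 in CD10-A375 against 5.83, 5.77, 6.03 and 5.81 in mock-A375. Its arrays did not overlap, and the log2 fold change of -0.41 ± 0.16 missed the threshold (limma, adjusted p = 0.0583, and 0.0218 to 0.15 over the alternatives) but passed without CD10-A375 replicate 3, at -0.52 (limma, adjusted p = 0.0275). SAMD9, which restricts poxviruses, had -0.19 ± 0.09 (limma, adjusted p = 0.111, and 0.0394 to 0.394 over the alternatives) and passed without CD10-A375 replicate 3, at -0.26 (limma, adjusted p = 0.0394). RSAD2, CMPK2 and SAMD9L were not detected.

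PARP14 and PARP9, ADP-ribosyltransferase family members encoded close together on chromosome 3, both had negative log2 fold changes. PARP14 signals were 7.82, 7.60, 7.89 and 7.87 in CD10-A375, against 8.18, 7.95, 8.10 and 8.13 in mock-A375. The groups did not overlap but came close, and the log2 fold change of -0.30 ± 0.09 passed (limma, adjusted p = 0.0181, and 0.00932 to 0.226 over the alternatives). It was lost without CD10-A375 replicate 2, at -0.23 (limma, adjusted p = 0.0674), without mock-A375 replicate 1, at -0.27 (limma, adjusted p = 0.0523), and with SAM (adjusted p = 0.226). PARP9 had -0.12 and, with its other probe, -0.28, and neither passed (limma, adjusted p = 0.329 and 0.125).

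The remaining members are genes induced by interferon whose role in the response is less settled, and they held both a large rise and the largest fall. IFI35, a leucine zipper protein, had signals of 10.10, 10.38, 10.27 and 10.33 in CD10-A375, against 9.03, 9.05, 9.37 and 9.15 in mock-A375. All CD10-A375 arrays were above all mock-A375 arrays. The means of 10.27 ± 0.12 in CD10-A375 and 9.15 ± 0.16 in mock-A375 (SD, n = 4 each) gave a log2 fold change of 1.12 ± 0.09 or 2.17-fold (limma, adjusted p = 7.01e-09), and the deposited signal averaged 1200 in CD10-A375 and 563 in mock-A375. IFI44, a cytoplasmic protein named for its induction, had 4.84, 4.91, 4.83 and 5.24 in CD10-A375, against 7.74, 7.38, 7.81 and 7.67 in mock-A375. It was detected on 0 CD10-A375 arrays and on all 4 mock-A375 arrays, so only a bound can be given. Set against the lowest signal of a detected probe on each CD10-A375 array, which averaged 5.70, IFI44 was at least 3.85-fold lower in CD10-A375. The measured means were 4.96 ± 0.19 in CD10-A375 and 7.65 ± 0.19 in mock-A375 (SD, n = 4 each). The test was of this measured difference and not of the bound (limma, adjusted p = 4.04e-11). Its neighbour and paralog IFI44L, detected on 2 CD10-A375 arrays and 0 mock-A375 arrays, had a log2 fold change of 0.14 (limma, adjusted p = 0.593). The other IFI44L probe was not detected on any array. IFI6, linked to resistance to apoptosis, had 0.02 and 0.18 with its 2 probes (limma, adjusted p = 0.8 and 0.11), XAF1, an antagonist of XIAP, had -0.02 (limma, adjusted p = 0.891) and LGALS3BP, a secreted glycoprotein, had -0.11 (limma, adjusted p = 0.179), none of which passed. EPSTI1 and IFI27 were not detected. Over all 20 members that did not pass, log2 fold changes lay between -0.41 and 0.25, and 16 of them lay within 0.2 of 0.

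Members that lie side by side in the genome had unlike values in several places. On chromosome 12, OAS1, OAS3 and OAS2 follow each other in the RefSeq order with log2 fold changes of 0.25, -0.18 and -1.88, of which only OAS2 passed. On chromosome 11, IFITM1 with -1.21 stands between IFITM2 with -0.09 and IFITM3 with -0.01. On chromosome 10, IFIT2, IFIT3, IFIT1 and IFIT5 had -0.44, -0.21, 0.34 and -0.72 in that order, with 1 other coding gene between IFIT3 and IFIT1, so that the higher IFIT1 is next to the lower IFIT5. On chromosome 1, IFI44L with 0.14 lies next to IFI44, the gene with the largest fall. IFI44L was near the limit of detection, on 2 CD10-A375 arrays and 0 mock-A375 arrays, so a fall in it could hardly have been seen. HERC6 and HERC5 on chromosome 4 both fell, with -0.56 and -1.35, and on chromosome 21 MX2 had 0.02 beside MX1 with -0.27. The differences between neighbours were not tested, and the probes of these genes differ in brightness.

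**Figure D4:**
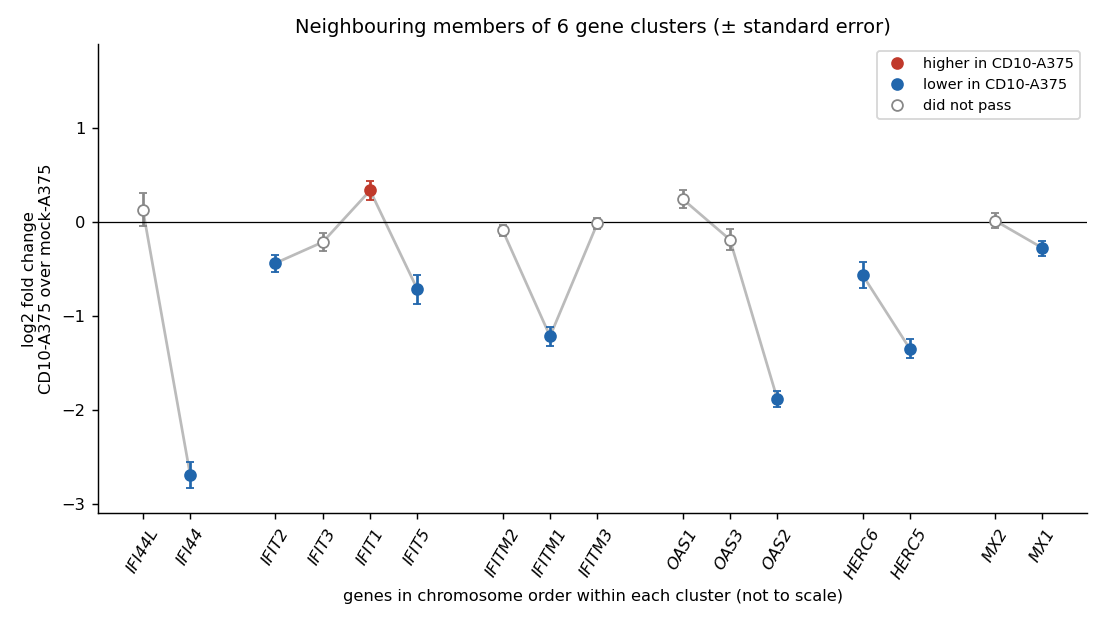
Log2 fold change, CD10-A375 over mock-A375, with bars of 1 standard error, for members that follow each other along a chromosome, joined by lines in genome order. Within the OAS, IFITM and IFIT groups the values spread by more than 1 log2 unit, HERC6 and HERC5 both lie below 0, and IFI44 is drawn at its measured difference, for which only a bound holds.

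Upstream of these genes, the interferons themselves were hardly detected, while the receptor and signalling genes moved in both directions, more of them higher than lower. All 21 interferon ligand genes had probes, and 29 of their 30 probes were not detected on any array. The 1 exception, for IFNA21, was detected on 0 CD10-A375 arrays and 1 mock-A375 array and did not pass at -0.17 (limma, adjusted p = 0.516). Of 18 receptor and JAK-STAT genes listed, 14 were tested, 6 passed as higher and 2 as lower (42.9% and 14.3%, against 19.9% and 21.9% of all genes), with a median log2 fold change of 0.19 against -0.03 for all genes. Among the 6 higher, IFNAR2, IL10RB, IFNAR1 and IFNGR2 lie next to each other on chromosome 21. IFNLR1, the specific chain of the type III interferon receptor, was lower, with 6.42, 6.54, 6.39 and 6.51 in CD10-A375 against 7.83, 7.36, 7.55 and 7.93 in mock-A375. The groups did not overlap, at a log2 fold change of -1.20 ± 0.12 or 2.30-fold lower (limma, adjusted p = 4.16e-07), and its second probe was lower too, at -0.52 (limma, adjusted p = 0.0248). IFNAR2, a chain of the type I receptor, was higher, with 8.23, 8.33, 8.08 and 8.29 in CD10-A375 against 7.61, 7.53, 7.66 and 7.57 in mock-A375, a log2 fold change of 0.64 ± 0.09 (limma, adjusted p = 1.44e-05). IFNAR1, the other chain, had 0.25 (limma, adjusted p = 0.0468, and 0.0235 to 0.289 over the alternatives), and this call was lost when CD10-A375 replicate 1, 3 or 4 or mock-A375 replicate 2, 3 or 4 was left out, at an adjusted p of 0.0791 to 0.138. In all, the IFNAR1 call was lost under 12 of 19 alternatives, among them the deposited average-normalized values (adjusted p = 0.0765), no filter on dim probes (0.0979), no intensity trend (0.0652), no normalization (0.2) and SAM (0.289). IL10RB, the chain that the type III receptor shares with that of interleukin-10, was higher by 0.55 ± 0.07 (limma, adjusted p = 2.8e-06). STAT3 was higher by 0.53 ± 0.07 (limma, adjusted p = 1.28e-05), as were its other 2 probes, at 0.67 and 0.43. JAK1 was higher by 0.46 ± 0.11 (limma, adjusted p = 0.00419) but did not pass with SAM (adjusted p = 0.111, the highest over the alternatives, with 0.00251 the lowest), and TYK2 had 0.08 (limma, adjusted p = 0.478). The receptor chains for interferon gamma went opposite ways, with IFNGR2 higher by 0.40 and IFNGR1 lower at -0.44 (limma, adjusted p = 8.68e-05 and 0.000162).

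Of 16 genes of nucleic acid sensing, 12 were tested, 1 was higher and 3 were lower, with a median of 0.01. The 33.3% that passed lay below the 41.8% of all genes. STING1, the adaptor of cytosolic DNA sensing, had 8.62, 8.69, 8.53 and 8.72 in CD10-A375 against 9.37, 9.57, 9.40 and 9.44 in mock-A375. The groups did not overlap, and STING1 was lower at a log2 fold change of -0.80 ± 0.08 or 1.75-fold (limma, adjusted p = 1.55e-07). TLR3, the endosomal receptor of double-stranded RNA, was detected on 0 CD10-A375 arrays and on all 4 mock-A375 arrays. It was at least 1.52-fold lower in CD10-A375. The measured means were 5.42 in CD10-A375 and 6.30 in mock-A375, and the test was of their difference (limma, adjusted p = 6.76e-05). MAVS, the adaptor of RIGI and IFIH1, was lower at -0.60 ± 0.11 (limma, adjusted p = 0.000306), although a second probe, detected on 1 CD10-A375 and 2 mock-A375 arrays, did not pass at -0.28 (limma, adjusted p = 0.231). DHX58, a regulator of these sensors, was detected on 4 CD10-A375 arrays and 1 mock-A375 array and was higher by 0.57 ± 0.14 (limma, adjusted p = 0.0041).

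Among 40 other interferon-induced genes, 23 were tested, 3 were higher, 9 were lower and 11 did not pass (13% higher and 39.1% lower, against 19.9% and 21.9% of all genes), with a median log2 fold change of -0.14, the same as over the members at 2 decimals. GBP2, an interferon-induced GTPase that attacks the vacuoles of intracellular microbes, rose most. GBP2 signals were 11.06, 11.14, 11.18 and 11.17 in CD10-A375, against 8.35, 8.31, 8.35 and 8.35 in mock-A375. The groups lay far apart, at a log2 fold change of 2.80 ± 0.06 or 6.96-fold (limma, adjusted p = 1.8e-16), beyond the range of the members. GBP1, of the same family, was higher by 0.89 ± 0.10 (limma, adjusted p = 1.56e-06), and its other tested probe by 1.09. ZNFX1 was also higher in CD10-A375. On the lower side, IFI30, a lysosomal thiol reductase used in antigen processing, had -0.71 ± 0.13 (limma, adjusted p = 0.000386), and PARP12, an antiviral ADP-ribosyltransferase, had -0.58 ± 0.08 (limma, adjusted p = 1.76e-05). The others lower were PLSCR1, PARP10, CCL5, PNPT1, LAP3, SP110 and LY6E. Over all 4 lists of the pathway, 50 genes were tested, of which 10 were higher and 14 lower with limma, or 20.0% and 28.0%, against 19.9% and 21.9% of all genes. With SAM, 6 were higher and 6 lower, beside 8.74% and 7.82% of all genes.

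**Figure D5:**
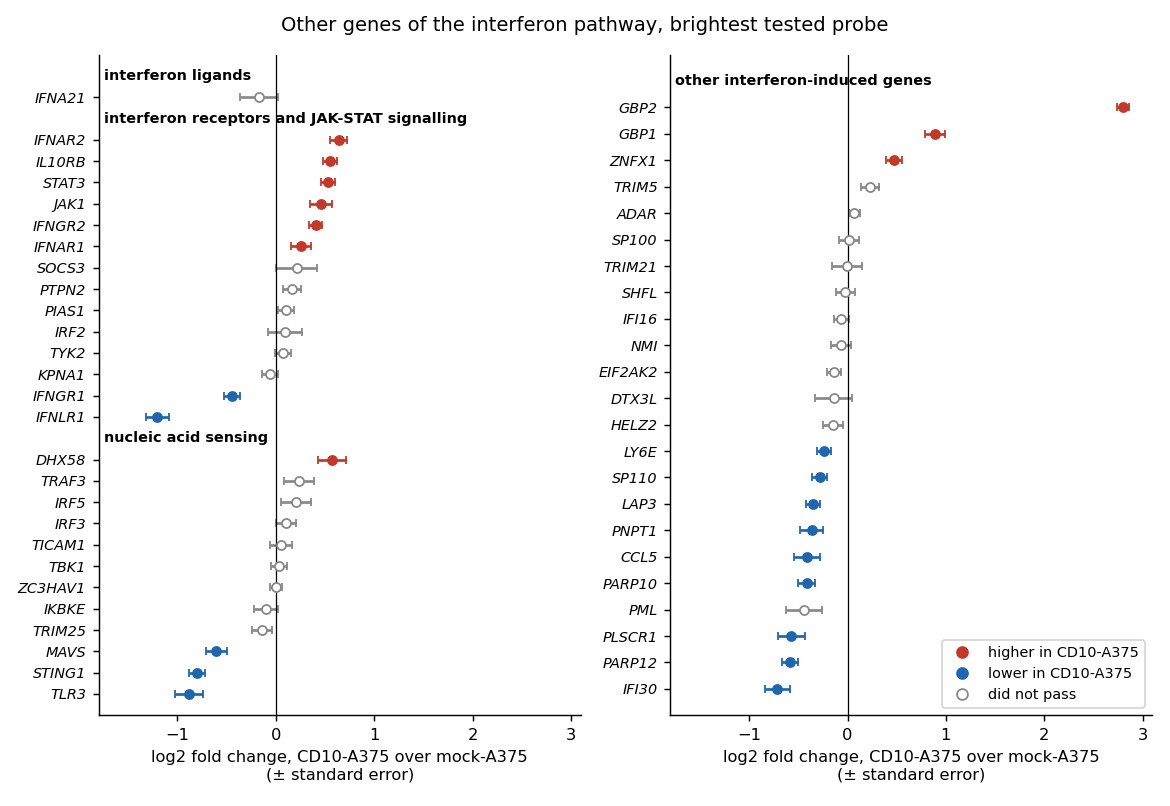
Log2 fold change, CD10-A375 over mock-A375, with bars of 1 standard error, for the tested genes of the interferon pathway that are not among the 42 members, grouped as ligands, receptors and signalling, sensing, and other induced genes. GBP2 stands apart at 2.80, and 8 of the 14 receptor and signalling genes passed, 6 of them higher in CD10-A375. Among these 6, IFNAR2, IL10RB, IFNAR1 and IFNGR2 are neighbours on chromosome 21.

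The summed signals of marker lists of other cell types differed between the groups as well, although most markers of each such list were detected on no array. Summed over each list as average-normalized signal, leukocyte markers ran from 760 to 943 in CD10-A375 and from 531 to 621 in mock-A375. Of these markers, 6 of 9, PTPRC among them, were detected on no array, and CD14, CD68 and LYZ on all 8. LYZ was higher in CD10-A375, while CD14 and CD68 did not pass at their brightest probes. A dimmer CD68 probe was higher, at a log2 fold change of 0.80 (limma, adjusted p = 2.02e-07). Fibroblast markers ran from 150 to 176 in CD10-A375 and from 228 to 275 in mock-A375, with 7 of 10 detected on no array. Keratinocyte markers ran from 3040 to 3500 in CD10-A375 and from 2750 to 3020 in mock-A375, with 6 of 9 detected on no array. Most of this sum was KRT10, whose signal before normalization averaged 3080 in CD10-A375 and 2690 in mock-A375. Endothelial markers ran from 34.3 to 63.3 in CD10-A375 and from -49.2 to 10.7 in mock-A375, with 7 of 8 detected on no array. Melanocyte lineage markers ran from 8170 to 9100 in CD10-A375 and from 4880 to 5560 in mock-A375. The part of these differences in the values of the interferon-stimulated genes was not tested.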

How the data were processed

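RNA from CD10-A375 and mock-A375 cells was measured on 4 Illumina bead arrays per group. The authors used GenomeStudio (version 1 per the submitters' notes) and deposited, for 47322 probes, a background-subtracted intensity without normalization between arrays, a detection p-value that ranks the probe among negative controls, and a second table with the intensity after average normalization. The sources used here name neither slides nor scan dates. The intensities of the first table were corrected by normexp, quantile normalized and put in log2 units with an offset of 16, in limma 3.58.1 under R 4.3.3. Probes detected on any array (detection p at most 0.01), 19550 in number, were tested with limma's two-sided moderated test (linear model, variance trended on intensity), and p was adjusted over all of them by the Benjamini-Hochberg method. The test was first run on simulated data with known answers, in which far fewer probes were changed than passed here. That run checked the working of the steps and not the error rate in these data. Of all probes, 30113 carried 1 gene symbol, 8 several and 17201 none, and genes were named from those with 1. The older symbol of 1 member, RIGI, was updated.

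The members and all gene lists were chosen with earlier results of these data known. By rule, array values are given for members that passed with a log2 fold change of at least 0.5 in size or have a bound, members whose probes disagree are named, and up to 4 genes of each pathway list with the largest change among those that passed are named, with IFNAR1, IFNAR2, JAK1 and TYK2. Array values of other members and the interferon gamma receptor genes were chosen after their values were seen. A bound sets the brighter group's mean against, per array, the higher of the probe's own signal and the lowest signal of a detected probe. Titles number the replicates 1 to 4 in both groups. Deviations of same-numbered arrays correlated at -0.0089, -0.05, -0.19 and 0.032, so the numbers were not taken as pairs. Alternatives changed the normalization, background correction, offset, filter, test, threshold, replicate block and probe of a gene, or left out single arrays.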

Additional observations from a re-analysis of the deposited data

Results flagged for a closer look

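In 5 of 98 groups of 4 arrays, formed from 49 named genes in CD10-A375 and in mock-A375, 1 array stood apart from the other 3 by Dixon's criterion, and chance alone gives about 5%. Among the members, MX1 was at 8.96 on CD10-A375 replicate 1, with the other CD10-A375 arrays between 9.19 and 9.21, and SAMD9 was at 8.58 on CD10-A375 replicate 3, with the others between 8.32 and 8.35. Without that array, SAMD9 passed as lower in CD10-A375. Among the pathway genes, IL10RB was at 10.27 on CD10-A375 replicate 1, with the others between 10.43 and 10.46, and TYK2 was at 11.03 on CD10-A375 replicate 4, with the others between 11.12 and 11.14. GBP2 was at 8.31 on mock-A375 replicate 2, with the other mock-A375 arrays all at 8.35. Values are normalized log2 signals.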

How the results depend on the processing

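None of the tested members and named pathway genes changed direction with a call under any of the alternatives run. The members' median log2 fold change of -0.14 became -0.18 without normalization between arrays, -0.11 with an offset of 50 and -0.18 with the mean of the probes of a gene, while the median over all genes stayed between -0.06 and -0.01. With SAM, 1496 probes were higher and 1301 lower, against 3386 and 3776 with limma, 6 members were lower against 10, and 6 pathway genes were higher and 6 lower against 10 and 14. At the thresholds of the study's methods, applied to limma's values, 575 probes were higher and 394 lower. Among the members 2 were higher and 5 lower, and 1 pathway gene was higher and 1 lower. With the replicate number as a block, 4 members were higher and 10 lower and 10 pathway genes were higher and 14 lower, the same counts as without it, with 3152 probes higher and 3483 lower. Leaving out 1 array at a time gave 4 to 5 members higher and 9 to 12 lower. ISG20, IFI35, IFI44, OAS2, HERC5, IFITM1 and BST2 passed under every alternative in which they were tested, and IRF7 and IFIT5 under all but the fold threshold. Probes detected on few arrays, such as those of RIGI, IFI44L and IFNA21, limit what can be said of those genes.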

Other observations

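The 4 receptor genes that were higher in CD10-A375 lie next to each other on chromosome 21, although the call of IFNAR1 was lost under 12 of 19 alternatives. In the RefSeq order these are IFNAR2, IL10RB, IFNAR1 and IFNGR2, with log2 fold changes of 0.64, 0.55, 0.25 and 0.40. This group was picked after its values were seen, and the read-through gene IFNAR2-IL10RB was not tested. Of 13 other coding genes around and between them, 11 were tested. OLIG1 and OLIG2, which precede IFNAR2, and TMEM50B, which follows IFNGR2, were higher at 1.33, 0.71 and 0.37 (limma, adjusted p = 3.48e-06, 1.35e-06 and 0.000206), CFAP298 was lower at -0.26 (limma, adjusted p = 0.0161), and the other 7 did not pass. Over chromosome 21 without the 4 receptor genes, 26 of 118 tested genes were higher, or 22.0%, against 19.9% of all genes. In that set, which still counts the neighbours named above, 19 were lower, with a median log2 fold change of 0.01. MX1 and MX2 lie on the same chromosome, and neither passed as higher.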
